A study of Mus musculus with 12 samples.

Results

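The 55 genes described here build the machinery of DNA replication and mitosis, and they were measured in 12 SMART-seq libraries of mouse muscle stem cells (MuSCs) and myoblasts. They were listed by gene name, with earlier results of these data known. By textbook role, 23 act at replication origins, at the fork, in nucleotide supply or in the G1/S transition (the S-phase members), and 32 act in G2 or mitosis (the G2/M members). The boundary is not sharp for 8 of them, since Ccna2, Cdk1, Gmnn, Hmgb2, Mad2l1, Mki67, Smc2 and Top2a are present over a longer stretch of the cycle. All 55 had a row in both expression tables, among the 16169 genes listed in the genotype table and the 16503 in the culture table. All 55 also passed the filter on low values, a minimum of 10 normalized counts reached in 3 or more libraries of a table, which left 15304 and 15345 genes to test.

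The study asked what the E3 ubiquitin ligase Nedd4L does in MuSCs, the resident stem cells of skeletal muscle. In the genotype comparison, MuSCs came from the hindlimbs of male mice between 5 and 6 weeks old, 3 of them WT and 3 Nedd4L-cKO. The cKO line is Nedd4L fl/fl Pax7 cre/+ on a C57BL/6 background: Cre is expressed where Pax7 is, exon 15 of Nedd4l is removed in those cells, and the gene is still transcribed. Whether the WT mice carried a floxed or a Cre allele is not given in the sources used here. In the culture comparison, MuSCs of 3 further WT mice, whose age is not given for these libraries, were sequenced freshly sorted and again as myoblasts after 3 days in growth medium with serum and bFGF. Cells were gated as ITGA7+ and negative for CD31, CD45, CD11b and SCA1, and each library was made from 1000 cells of 1 mouse. Libraries are named by group and by the replicate number of their title: WT and cKO 01 to 03, fresh MuSC and myoblast 04 to 06.

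Resting MuSCs lie outside the cell cycle and hold little of this machinery. Before S phase, Cdc6 and Cdt1 load the Mcm2 to Mcm7 helicase on origins, and E2F factors switch on the genes for replication. Later, in G2, the MuvB complex with Mybl2 and then Foxm1 switches on cyclin B, the mitotic kinases and the kinetochore and spindle genes, commonly through a promoter element called CHR. During and after mitosis the anaphase-promoting complex (APC/C) destroys many of their proteins.

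Promoter letters were compared first, because E2F and CHR elements are the textbook mark of these 2 gene groups and played no part in the choice of genes. The windows ran from 250 bases before to 50 bases from the annotated start on (300 bases, GRCm39, GENCODE starts), both strands were searched, and the same windows of 21770 protein-coding genes gave the background. The letters TTCCCGC or TTGGCGC (E2F) occurred in 14 of 23 S-phase members (60.9%), in 3 of 32 G2/M members (9.38%) and in 8.13% of all promoters. The letters TTTGAA or TTCGAA (CHR) occurred in 17 of 32 G2/M members (53.1%), in 2 of 23 S-phase members (8.70%) and in 18.8% of all promoters. CCAAT was found in 71.9% of G2/M members, 56.5% of S-phase members and 39.9% of all promoters, and CCAAT together with CHR in 50%, 8.70% and 8.25%. Matches to CCAAT and E2F overlapped in 1 member and in 112 promoters overall. Ccnb1, Nusap1, Birc5 and Aurka had no CHR letters in this window.

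Stretches of 30 bases with E2F letters in capitals, on the strand of the gene and 5′ to 3′, are shown for some of the S-phase members whose expression is described below.
Cdc6, chr11:98798647-98798676, plus strand: gaaggctgaagtagagcggctTTGGCGCga
Mcm5, chr8:75835977-75836006, plus strand: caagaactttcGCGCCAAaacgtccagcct
Mcm6, chr1:128287470-128287499, minus strand: attggacgggtTTGGCGCgaagtagctcag
Rrm1, chr7:102090824-102090853, plus strand: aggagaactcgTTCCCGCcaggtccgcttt
E2f1, chr2:154411776-154411805, minus strand: gcaaaaaggatTTGGCGCgtaaaagtggcc
Uhrf1, chr17:56610278-56610307, plus strand: tgctttctcgcTTCCCGCcacagcgccagc
The same is shown with CHR letters in capitals for some of the G2/M members, most of them within 50 bases of the start.
Cdk1, chr10:69188740-69188769, minus strand: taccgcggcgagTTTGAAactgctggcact
Ccnb2, chr9:70328825-70328854, minus strand: atagtgcgtcagcggcgcggtaTTTGAAtc
Plk1, chr7:121758666-121758695, plus strand: ttgtaacgttcccagcgccgcgTTTGAAtt
Cenpf, chr1:189420264-189420293, minus strand: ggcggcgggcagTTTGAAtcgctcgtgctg
Prc1, chr7:79944182-79944211, plus strand: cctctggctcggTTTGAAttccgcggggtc
Kif23, chr9:61854062-61854091, minus strand: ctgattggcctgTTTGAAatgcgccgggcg
The 120 bases just upstream of Aurkb (chr11:68936347-68936466, plus strand) are shown because they hold a pair of CCAAT boxes besides CHR letters, all in capitals.
Aurkb upstream: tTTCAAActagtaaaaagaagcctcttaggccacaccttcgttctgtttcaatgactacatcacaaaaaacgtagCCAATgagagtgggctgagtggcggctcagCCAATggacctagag
A match describes these letters only.

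The labels and the libraries were checked before the members were compared. Levels are given in RPM, normalized counts scaled so that the 6 libraries of a table hold 1000000 on average. RPM is not divided by gene length, so a level is compared between libraries and not between genes. Nedd4l itself stood at 70.2, 96.4 and 66.7 RPM in WT 01 to 03 and at 30.2, 36.3 and 22.5 RPM in cKO 01 to 03 (log2 fold change -1.37, SE 0.28, limma adjusted p = 0.0467), every cKO library below every WT library. The 12 MuSC marker genes summed to 6628 to 10657 RPM in WT, to 5652 to 9056 RPM in cKO and to 6735 to 9439 RPM in fresh MuSCs. In myoblasts they summed to 1654 to 1799 RPM. Normalized counts per library summed to 40323468 to 50687122 in the genotype table and to 33189802 to 37595659 in the culture table, and the read depth behind them is unknown. With 1000 cells a library, more cells in the cycle and more RNA per cycling cell cannot be told apart.

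In Nedd4L-cKO MuSCs the G2/M members stood higher than in WT as a group, the S-phase members less so, and single genes passed the test in 2 cases. All 32 G2/M members had a log2 fold change above 0 (cKO minus WT, of RPM + 1), against 18 of 23 S-phase members and 50.1% of all genes tested. The median was 1.13 for G2/M members, 0.18 for S-phase members and 0.00 for all genes. With the adjusted p held to 0.05 or less, 2 of 55 members were called, both G2/M and both higher: Ccnb1, which as cyclin B1 activates Cdk1 for mitosis, and Nusap1, which bundles spindle microtubules. Across all genes 0.784% were called, 0.523% higher and 0.261% lower. At an unadjusted p under 0.05, 20 G2/M and 2 S-phase members were higher and no member was lower, where 7.51% of all genes were higher and 7.13% lower (14.6% in all). The log2 fold change was 1 or more in 17 G2/M members and 1 S-phase member, against 3.46% of all genes. With that threshold and a mean of 5 RPM added to the adjusted p, the same 2 members were called, against 0.653% of all genes.

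Summed over the 32 G2/M members, expression was 929, 405 and 484 RPM in WT 01, 02 and 03 and 1497, 1098 and 1389 RPM in cKO 01, 02 and 03. Every cKO library lay above every WT library, and the means were 606 ± 283 and 1328 ± 206 RPM (SD, n = 3), a ratio of 2.19. The 23 S-phase members summed to 848, 562 and 638 RPM in WT and to 902, 792 and 731 RPM in cKO, a ratio of 1.18 with overlapping groups. The G2/M sum divided by the S-phase sum was 1.10, 0.721 and 0.759 in WT and 1.66, 1.39 and 1.90 in cKO, again without overlap. Members share their libraries and are not replicates, so these sums are given without a test.

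**Figure D1:**
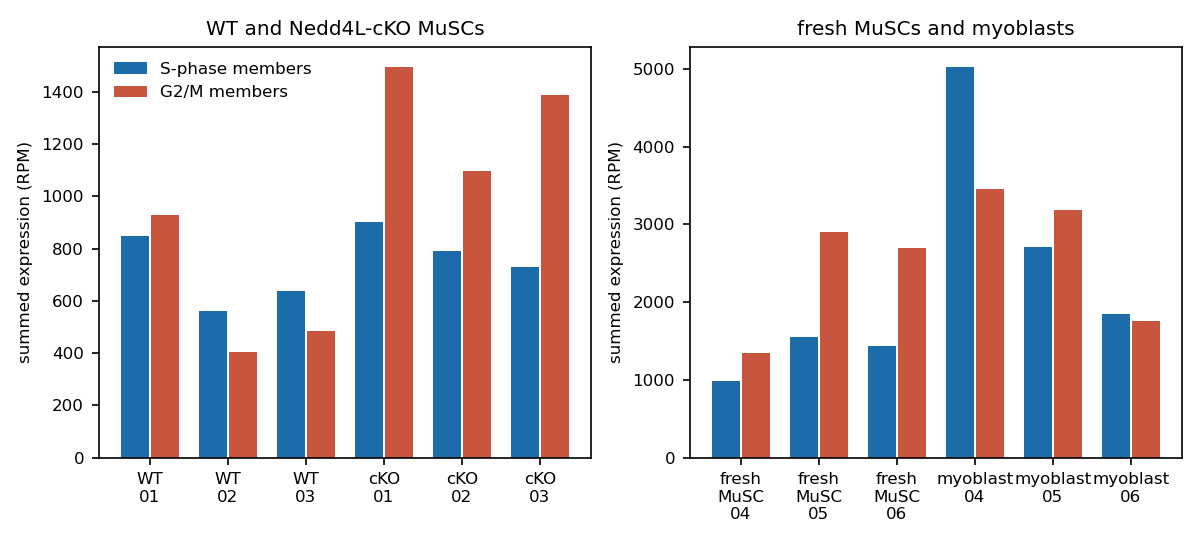
Summed expression (RPM, linear axis from 0) of the 23 S-phase members (blue) and the 32 G2/M members (red) in each of the 12 libraries, with WT and Nedd4L-cKO MuSCs on the left and fresh MuSCs and myoblasts on the right. In the genotype table the G2/M bars of all 3 cKO libraries (1098 to 1497 RPM) exceed those of the WT libraries (405 to 929 RPM), and in the culture table the S-phase bars of the 3 myoblast libraries (1845 to 5032 RPM) exceed those of fresh MuSCs (990 to 1551 RPM). The 2 tables were normalized separately.

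WT 01 stood apart from the other WT libraries. It was the highest of the 3 in 27 of 32 G2/M and 14 of 23 S-phase members. Without it, 11 G2/M members were called (Birc5, Ccnb1, Ccnb2, Cdca3, Cdca8, Cdk1, Cenpa, Cenpe, Nusap1, Plk1 and Prc1) and no S-phase member. The ratio of the G2/M sums was then 2.99. Since WT 01 mostly held the highest of these levels in its group, leaving it out widens the difference by arithmetic alone. The number of all genes called with a library left out is given further on as a range, not for this fit alone. The 11 calls are therefore not read against a background. Leaving out any of the other 5 libraries left 0 members called by limma, with 15 to 20 G2/M members still at an unadjusted p under 0.05 and sum ratios of 1.88 to 2.38.

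The cyclins and mitotic kinases had the highest median of the mitotic roles (8 genes, log2 fold change 1.64). Ccnb1 (ENSMUSG00000041431, chr13:100915153-100923116, minus strand, GRCm39) was at 32.8, 11.0 and 9.93 RPM in WT and 91.6, 63.4 and 71.3 RPM in cKO. The lowest cKO library was nearly double the highest WT library, and the log2 fold change was 2.20 (SE 0.40, adjusted p = 0.0325). Cdk1, the mitotic kinase itself, was at 39.8, 15.9 and 18.3 RPM in WT and 104, 49.3 and 74.9 RPM in cKO, a log2 fold change of 1.64 (SE 0.37, adjusted p = 0.0727). Its groups did not overlap and it did not pass the adjusted threshold. Ccna2, whose cyclin A2 serves Cdk2 in S phase and Cdk1 in G2, was at 30.7, 14.5 and 10.5 RPM against 39.8, 34.8 and 54.0 RPM, also without overlap (log2 fold change 1.28, SE 0.37, adjusted p = 0.146). Aurka, the centrosomal Aurora kinase, was at 5.76, 2.47 and 3.87 RPM in WT and 25.3, 5.10 and 18.1 RPM in cKO (log2 fold change 1.58, SE 0.51, adjusted p = 0.190). Here cKO 02 fell inside the WT range. Plk1, the polo kinase, was low in all 6 libraries (0 to 3.06 RPM in WT, 4.31 to 6.03 RPM in cKO). Ccnb2, which encodes cyclin B2, and Cdca3, which triggers loss of the mitotic inhibitor Wee1, overlapped through WT 01 alone and had log2 fold changes of 1.69 and 1.83. Foxm1, the transcription factor of the group, had the smallest difference of the 8 at 0.75 (adjusted p = 0.641).

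The chromosomal passengers and kinetochore proteins followed the same pattern. Birc5, or survivin, which brings Aurora B to centromeres, was at 35.3, 7.91 and 12.1 RPM in WT and at 85.6, 54.7 and 62.3 RPM in cKO (log2 fold change 2.06, SE 0.44, adjusted p = 0.0638). Cdca8, or borealin, was at 18.3, 7.16 and 4.23 RPM and at 31.9, 20.1 and 31.6 RPM (1.59, SE 0.44, adjusted p = 0.130). Both had non-overlapping groups, whereas Aurkb, the kinase they carry, overlapped through WT 01 (18.0 RPM against 8.78 to 16.9 RPM in cKO). Cenpf, a large kinetochore protein of G2, was at 19.1, 7.61 and 11.9 RPM and at 63.2, 26.1 and 54.7 RPM (1.81, SE 0.40, adjusted p = 0.0638). Cenpa, the centromeric histone, and Cenpe, the kinetochore motor, had log2 fold changes of 1.54 and 1.40 and adjusted p of 0.160 and 0.252.

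Among the 6 spindle genes, Nusap1 (ENSMUSG00000027306, chr2:119448779-119481725, plus strand) was at 9.91, 2.71 and 1.95 RPM in WT and 21.9, 22.4 and 24.4 RPM in cKO. The cKO libraries were within 3 RPM of each other and all above WT 01 (log2 fold change 2.28, SE 0.45, adjusted p = 0.0462). Prc1, which crosslinks the central spindle, and Tpx2, which activates Aurora A on microtubules, did not overlap either, at 14.9 to 85.3 against 96.1 to 104 RPM and at 5.77 to 22.6 against 24.2 to 40.9 RPM. The mitotic kinesins differed less: Kif11 by 0.77, Kif23 by 0.61 and Kif20a by 0.37, each with overlapping groups and an adjusted p from 0.519 to 0.799.

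Spindle checkpoint and APC/C genes had the lowest median of the mitotic roles, 0.73 over 6 genes. Mad2l1, the checkpoint protein that holds back Cdc20, was at 14.6 to 27.1 RPM in WT and 37.5 to 49.3 RPM in cKO without overlap (log2 fold change 0.99, adjusted p = 0.168). Pttg1, or securin, had a log2 fold change of 0.61, Cdc20, the APC/C activator, 0.76, Bub1 0.95 and Bub1b 0.69, with overlapping groups in each. Ttk, the kinase at the top of the checkpoint, was at 1.71 to 6.89 RPM in WT and 3.01 to 4.87 RPM in cKO (0.06, adjusted p = 0.962), the smallest difference of the 32.

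Genes of chromosome structure had a median of 0.85 over 6 genes. Hmgb2, a chromatin protein abundant in dividing cells, was at 70.9, 58.6 and 60.8 RPM in WT and 224, 125 and 109 RPM in cKO, every cKO library higher (log2 fold change 1.19, SE 0.29, adjusted p = 0.0968). Top2a, the topoisomerase that separates sister chromatids, was at 42.8, 23.1 and 11.2 RPM and at 49.2, 44.1 and 86.8 RPM, also without overlap (1.32, SE 0.43, adjusted p = 0.199). Mki67, the Ki-67 proliferation antigen, was at 63.5, 16.1 and 12.7 RPM in WT and 26.7, 45.6 and 75.1 RPM in cKO. Its WT 01 exceeded 2 of the 3 cKO libraries, and its log2 fold change of 0.90 had an SE of 0.54 (adjusted p = 0.474). The condensin genes Smc2, Ncapg and Ncaph differed by 0.79, 0.68 and 0.22, and of these Smc2 had groups without overlap.

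**Figure D2:**
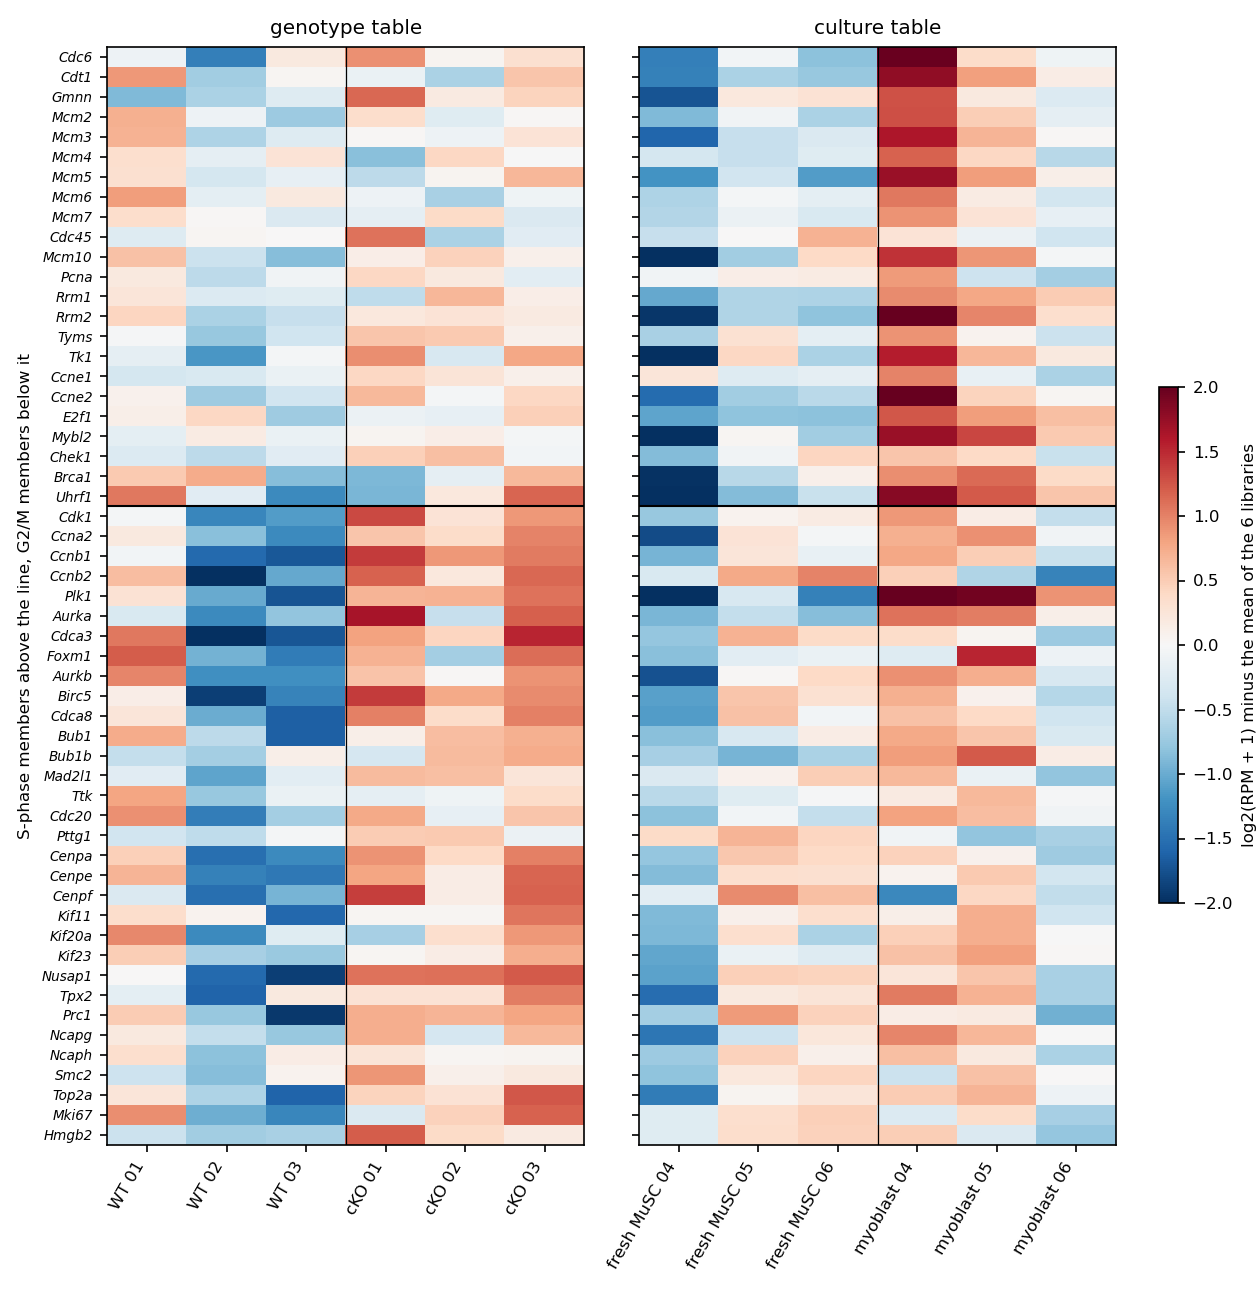
Expression of the 55 members in each library, as log2(RPM + 1) minus the mean of the 6 libraries of its table (colour, red higher and blue lower, limited to 2 in either direction), with S-phase members above the horizontal line and G2/M members below it and a vertical line between the groups of a table. In the genotype table the lower block is blue in WT 02 and WT 03, mixed in WT 01 and red in most cells of the cKO libraries, while in the culture table the upper block is blue in fresh MuSC 04 and darkest red in myoblast 04.

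The S-phase members lay closer to 0. Of the 9 licensing genes 5 had a log2 fold change above 0 and 4 below, with a median of 0.08. Gmnn, or geminin, which blocks Cdt1 from S phase through mitosis, lay highest at 4.94, 6.08 and 8.21 RPM in WT and 23.5, 11.5 and 13.98 RPM in cKO (log2 fold change 1.19, SE 0.36, adjusted p = 0.159), without overlap. Mcm2 was at 37.5, 21.0 and 13.3 RPM in WT and 29.1, 19.03 and 22.9 RPM in cKO, a difference of 0.08 (SE 0.36) whose sign changed with the scaling of the libraries. Mcm6 had the lowest fold change of all members at 71.5, 34.2 and 45.4 RPM in WT against 36.8, 24.7 and 36.9 RPM in cKO (-0.56, SE 0.31, adjusted p = 0.438), with overlap. Mcm3 and Mcm5 differed by 0.13 each, Mcm7 by -0.06, Cdt1 by -0.14 and Mcm4 by -0.28. Cdc6 was at 3.42, 0.845 and 4.42 RPM in WT and 7.98, 3.94 and 4.92 RPM in cKO (0.86, SE 0.46, adjusted p = 0.416).

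Genes of nucleotide supply lay above the other S-phase roles, with a median of 0.61 over 4 genes. Tyms, thymidylate synthase, was at 47.0, 27.8 and 35.96 RPM in WT and at 70.0, 68.8 and 51.0 RPM in cKO, without overlap (log2 fold change 0.78, SE 0.28, adjusted p = 0.234). Tk1, thymidine kinase, was at 8.93, 4.00 and 10.01 RPM and at 20.4, 8.04 and 18.2 RPM, where cKO 02 lay within the WT range (0.92, SE 0.43, adjusted p = 0.344). The ribonucleotide reductase subunits Rrm1 and Rrm2 differed by 0.18 and 0.45. At the fork, Pcna, the sliding clamp, was at 163, 99.0 and 136 RPM in WT and 190, 164 and 123 RPM in cKO, a difference of 0.27 with a 95% interval from -0.33 to 0.87. Cdc45 and Mcm10, which complete the active helicase, differed by 0.14 and 0.47.

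Of the G1/S regulators, the cyclin E genes were both higher on average. Ccne1 was at 17.5, 18.2 and 20.7 RPM in WT and 30.6, 27.5 and 24.6 RPM in cKO, without overlap (0.52, SE 0.26, adjusted p = 0.387), and Ccne2 at 7.67, 3.99 and 5.28 RPM against 11.9, 7.01 and 9.92 RPM with overlap (0.68, adjusted p = 0.409). E2f1 and Mybl2 stayed under 3 RPM in all 6 libraries and differed by 0.13 and 0.11. Chek1, the checkpoint kinase of S phase, was at 4.35, 3.54 and 4.57 RPM in WT and at 8.05, 8.82 and 5.24 RPM in cKO, with no overlap (0.68, adjusted p = 0.393). Brca1, which protects stalled forks, and Uhrf1, which guides maintenance of DNA methylation, differed by -0.28 and 0.30 with intervals that spanned more than 2 log2 units.

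Counting overlaps alone, 14 of 32 G2/M and 4 of 23 S-phase members had every cKO library above every WT library and none had every one below, against 9.75% and 9.59% of all genes. Without WT 01 the count was 26 G2/M and 8 S-phase members. With a WT library fewer, the groups separate more readily in any gene. The shares of all genes above do not apply to that count, and none was computed for it.

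Further genes of both processes were read from lists of other members. Of 58 other mitosis genes measured, 24 were higher (41.4%, against 7.51% of all genes) and 2 lower at an unadjusted p under 0.05, with a median log2 fold change of 0.76. Ube2c, the APC/C ubiquitin-conjugating enzyme, was the 1 called, at 14.4, 7.51 and 7.76 RPM in WT and 50.6, 25.7 and 65.7 RPM in cKO (2.11, adjusted p = 0.0325). Spag5 (astrin) and Depdc1a had the next smallest p, with log2 fold changes of 1.68 and 1.48. Of 55 other replication genes none was called by limma, 6 were higher (10.9%) and 1 lower at an unadjusted p under 0.05, and the median was 0.02. Rad51ap1, Dbf4 and Prim1, which serve recombination, origin firing and priming, had the smallest p of that list, with log2 fold changes of 1.21, 1.00 and 1.11.

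Marker genes also differed between the genotypes. Of the 12 MuSC markers 10 had a log2 fold change below 0 in cKO (median of the list -0.29), and 3 were lower and 0 higher at an unadjusted p under 0.05. Of these Cd34 was called by limma, at 267, 349 and 243 RPM in WT and 116, 102 and 62.5 RPM in cKO (-1.64, adjusted p = 0.0293). The 8 mural and smooth muscle genes summed to 1430 to 2137 RPM in WT and 2451 to 3448 RPM in cKO, with 0 called and 4 higher at an unadjusted p under 0.05. The 6 endothelial genes with a row, which do not include Cdh5 or Kdr, summed to 24.8 to 31.6 against 47.7 to 86.3 RPM. Pecam1 reached 49.9 RPM, Esam 23.0 RPM and Fabp4 11.2 RPM, while Egfl7, Tie1 and Flt1 stayed at or below 2.40 RPM. Of these 6 genes 0 were called, and 3 were higher and 0 lower at an unadjusted p under 0.05. The sums of other lists overlapped between WT and cKO: fibroadipogenic (1656 to 3734 against 1598 to 3546 RPM), glial (22.0 to 59.6 against 8.83 to 39.1 RPM) and erythroid (0.107 to 503 against 0.065 to 1101 RPM). The 15 myofiber genes summed to 435 to 694 against 787 to 997 RPM, with Myl1 called higher and Actn3 called lower. Of these 15 genes 14 had a log2 fold change above 0 (median of the list 1.04). At an unadjusted p under 0.05, 9 myofiber genes were higher (60%, against 7.51% of all genes) and 1 was lower. The 6 hematopoietic genes with a row summed to 2.97 to 39.9 against 2.98 to 10.4 RPM, and Ptprc stayed at or below 0.465 RPM. Mitochondrial genes took 2.83% to 4.04% of normalized counts in WT and 5.60% to 6.21% in cKO. The part of these in the higher G2/M levels was not tested.

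**Figure D3:**
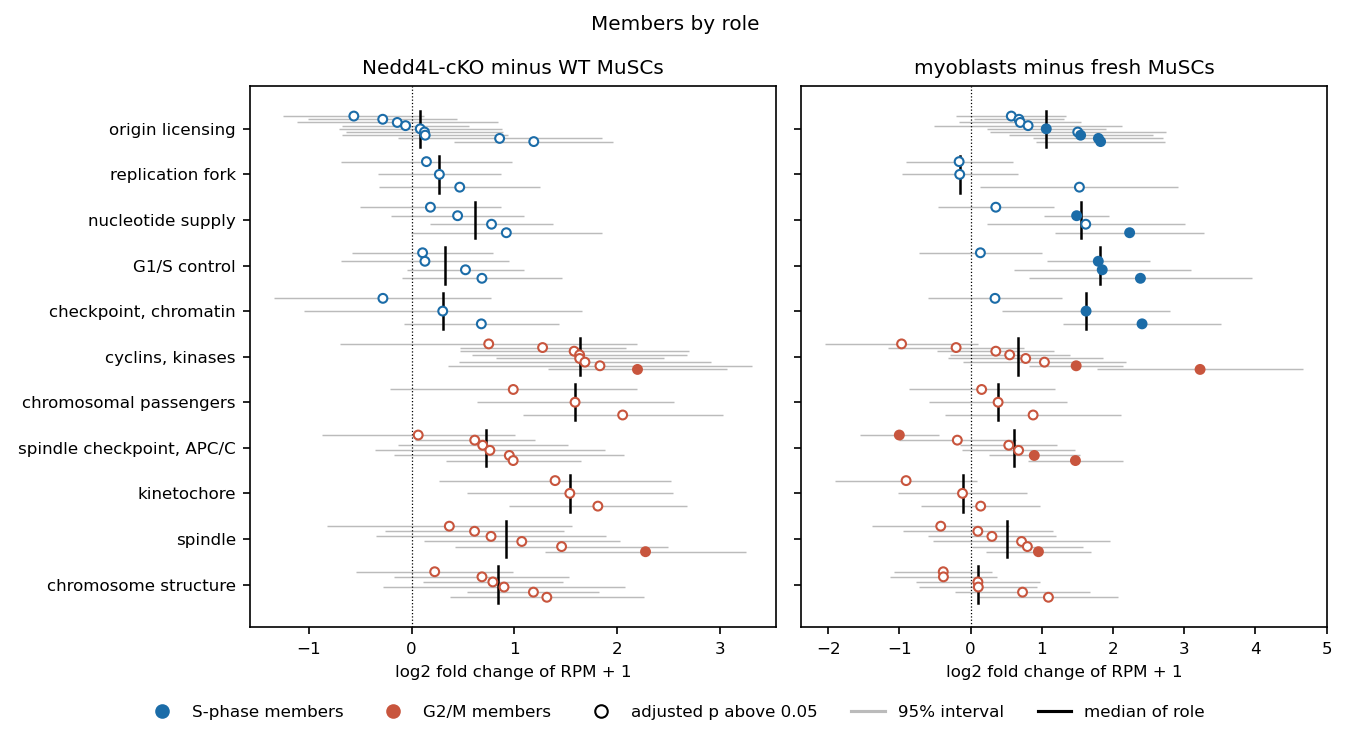
Log2 fold change of RPM + 1 for each member, grouped by role, for Nedd4L-cKO minus WT MuSCs (left) and myoblasts minus fresh MuSCs (right), with filled points for an adjusted p of at most 0.05, grey 95% intervals and a black bar at the median of each role. On the left all red G2/M points lie right of 0 while blue S-phase points straddle it, and on the right the blue points reach further than most of the red ones.

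In the culture comparison the order of the phases was the other way round: the S-phase members stood higher in myoblasts as a group, and the G2/M members less so. The longer lists of other replication and mitosis genes, given further on, did not show this order. Of the 23 S-phase members 21 had a log2 fold change above 0 (myoblasts minus fresh MuSCs) with a median of 1.51, and of the 32 G2/M members 23 did with a median of 0.37, against 51.7% and 0.04 for all genes. With the same threshold, 11 S-phase members were called, all higher, and 6 G2/M members, 5 higher and 1 lower. Culture changed many genes, 42.8% of those tested (22.2% higher, 20.6% lower), so the S-phase share of 47.8% higher is to be read against 22.2% and the G2/M share of 15.6% higher is below that background. In 14 S-phase and 5 G2/M members the log2 fold change was 1 or more, against 18.7% of all genes. At an unadjusted p under 0.05, 15 S-phase and 8 G2/M members differed, where 51.5% of all genes did. With added thresholds of a log2 fold change of 1 and a mean of 5 RPM, 11 S-phase and 4 G2/M members were called, against 25.2% of all genes.

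The 23 S-phase members summed to 990, 1551 and 1440 RPM in fresh MuSC 04, 05 and 06 and to 5032, 2712 and 1845 RPM in the myoblasts of the same mice. All myoblast libraries lay above all fresh libraries, with means of 1327 ± 297 and 3197 ± 1647 RPM (SD, n = 3) and a ratio of 2.41. The G2/M members summed to 1340, 2905 and 2695 RPM in fresh MuSCs and to 3461, 3187 and 1752 RPM in myoblasts, a ratio of 1.21 with overlap. Within a library the G2/M sum over the S-phase sum was 1.35, 1.87 and 1.87 in fresh MuSCs and 0.688, 1.17 and 0.949 in myoblasts, lower in each of the 3 mice.

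Single libraries weighed on these values. Fresh MuSC 04 was the lowest of its group in 31 of 32 G2/M and 21 of 23 S-phase members, and without it the G2/M median was -0.00, the ratio of the G2/M sums 1.00 and the members called 11. Myoblast 04 was the highest of its group in 22 of 23 S-phase members, and the ratio of the S-phase sums without it was 1.72. Myoblast 06 was the lowest in 23 of 23 S-phase and 28 of 32 G2/M members, and 21 members were called without it. These counts of called members are given without the share of all genes called in the same fits. They are therefore no result about the members alone.

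Of the nucleotide supply genes, both ribonucleotide reductase subunits rose. Rrm1 (chr7:102090890-102119709, plus strand), the large subunit, was at 95.1, 126 and 126 RPM in fresh MuSCs and 375, 333 and 274 RPM in myoblasts. The lowest myoblast library was more than double the highest fresh library, and the log2 fold change of 1.49 had the smallest SE of the members (0.20, adjusted p = 0.000507). Rrm2, the subunit made in S phase, was at 102, 262 and 227 RPM and at 1642, 780 and 501 RPM, without overlap (2.23, SE 0.46, adjusted p = 0.00474). In the annotation, 43.3% of its exonic bases lie opposite the exons of a lncRNA, and the library preparation does not keep strand. Tk1 and Tyms had log2 fold changes of 1.62 (adjusted p = 0.0605) and 0.35 (0.455) with overlapping groups.

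All 9 licensing genes had a log2 fold change above 0, and 4 of them were called higher: Cdt1, Mcm5, Mcm3 and Mcm2. That is 44.4%, against 22.2% of all genes. Cdt1 was at 14.1, 23.7 and 21.8 RPM in fresh MuSCs and at 130, 66.7 and 41.8 RPM in myoblasts (log2 fold change 1.83, SE 0.40, adjusted p = 0.00625). Mcm5 was at 21.7, 39.1 and 22.9 RPM and at 171, 92.3 and 55.7 RPM (1.80, SE 0.40, adjusted p = 0.00694), and Mcm3 at 25.5, 56.7 and 63.9 RPM and at 240, 126 and 79.4 RPM (1.55, SE 0.45, adjusted p = 0.0216). None of the 3 overlapped between the groups. Mcm2 was at 47.8, 84.6 and 57.3 RPM and at 219, 126 and 78.4 RPM, where myoblast 06 lay below fresh MuSC 05 (1.06, SE 0.37, adjusted p = 0.0446, and 0.0542 with the mouse as a block). The other helicase genes Mcm4, Mcm6 and Mcm7 had log2 fold changes of 0.70, 0.57 and 0.68 and Cdc6 of 1.51, none of them called. Gmnn was at 6.63, 28.3 and 29.8 RPM and at 60.2, 27.9 and 19.9 RPM (0.81, adjusted p = 0.290).

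The G1/S regulators held the transcription factors. E2f1, which drives entry into S phase, was at 2.07, 2.66 and 2.64 RPM in fresh MuSCs and 14.1, 10.5 and 8.78 RPM in myoblasts, at least 3 times higher in each myoblast library (log2 fold change 1.79, SE 0.32, adjusted p = 0.00216). Mybl2, which links the G1/S programme to the mitotic one, was at 0.889, 13.7 and 7.76 RPM and at 45.9, 35.2 and 19.4 RPM (2.39, SE 0.69, adjusted p = 0.0218). Ccne2 was at 11.7, 21.7 and 24.2 RPM and at 179, 48.9 and 36.8 RPM (1.85, SE 0.55, adjusted p = 0.0240). All 3 had groups without overlap, while the other cyclin E gene, Ccne1, was at 97.6, 68.9 and 72.6 RPM against 165, 74.8 and 52.8 RPM with overlap (0.14, adjusted p = 0.795). Uhrf1 had the largest log2 fold change of the S-phase members, 2.41 (SE 0.49, adjusted p = 0.00433), from 7.33, 21.4 and 29.3 RPM to 144, 95.5 and 59.6 RPM. Brca1 rose from 0.942, 4.22 and 7.26 RPM to 13.6, 15.8 and 8.99 RPM (1.62, SE 0.52, adjusted p = 0.0338), and Chek1 differed by 0.34 with overlap.

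The fork genes stood apart from the other S-phase roles. Pcna was at 163, 188 and 192 RPM in fresh MuSCs and 311, 128 and 107 RPM in myoblasts (log2 fold change -0.15, SE 0.36, adjusted p = 0.759). Its level in myoblast 04 was above all fresh libraries and in myoblasts 05 and 06 below all of them, and without myoblast 04 it was called lower (-0.62, adjusted p = 0.0202). Cdc45 differed by -0.16 with overlap, and Mcm10 by 1.53 (adjusted p = 0.0726).

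**Figure D4:**
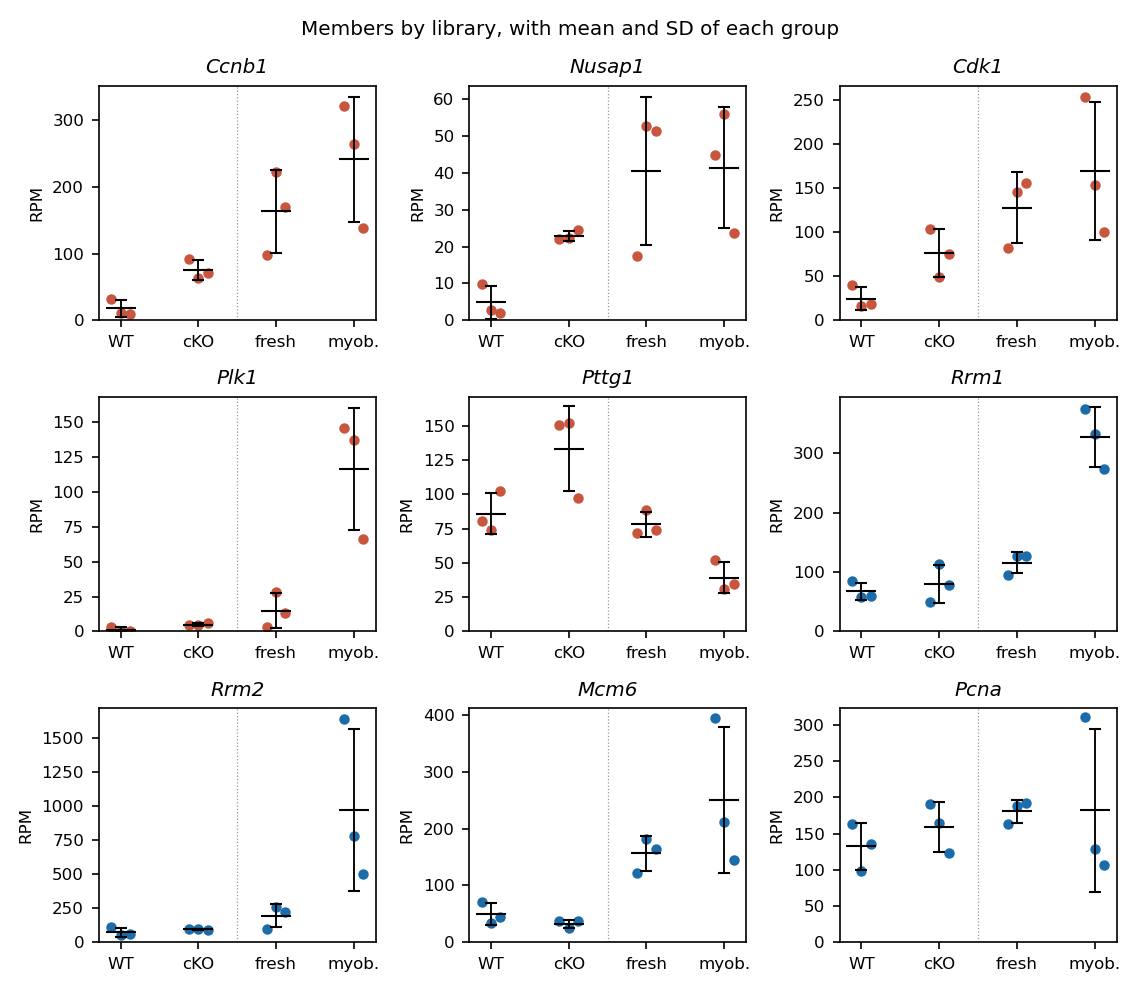
RPM of 9 members in each library (points, linear axes from 0), with the mean and SD of each group of 3 (black), for WT and cKO MuSCs left of the dotted line and fresh MuSCs and myoblasts right of it, in tables that were normalized separately. Ccnb1, Nusap1 and Cdk1 separate WT from cKO and overlap between fresh MuSCs and myoblasts, Rrm1 and Rrm2 do the reverse, Pttg1 is lower in all myoblast libraries, and Mcm6 and Pcna overlap in both pairs.

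Among the mitotic genes, called members belonged to the kinases, the checkpoint with the APC/C, and the spindle. Plk1 (chr7:121758646-121769108, plus strand) was at 3.06, 27.9 and 13.3 RPM in fresh MuSCs and at 146, 137 and 66.4 RPM in myoblasts, the largest log2 fold change of the 55 (3.22, SE 0.64, adjusted p = 0.00381). Aurka was at 33.1, 45.1 and 34.6 RPM and at 135, 129 and 68.2 RPM, also without overlap (1.48, SE 0.29, adjusted p = 0.00369). In the annotation, 25.2% of the exonic bases of Aurka lie opposite exons of Fam210b. Bub1b, the BubR1 checkpoint protein, was at 26.3, 21.6 and 26.9 RPM and at 75.8, 99.2 and 46.9 RPM (1.47, SE 0.29, adjusted p = 0.00383). Cdc20 was at 77.3, 132 and 98.4 RPM and at 239, 210 and 130 RPM, with myoblast 06 just below fresh MuSC 05 (0.89, SE 0.28, adjusted p = 0.0311). Kif23, the central spindle kinesin, was at 13.4, 26.0 and 23.7 RPM and at 43.5, 51.0 and 29.1 RPM, without overlap (0.95, SE 0.33, adjusted p = 0.0423, and 0.0566 with the mouse as a block).

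Pttg1 went the other way. It was at 71.8, 88.6 and 73.9 RPM in fresh MuSCs and at 52.1, 31.2 and 34.7 RPM in myoblasts, every myoblast library lower (log2 fold change -1.0, SE 0.24, adjusted p = 0.0104). Cenpf was at 49.1, 111 and 87.0 RPM and at 22.6, 76.2 and 40.1 RPM (-0.91, adjusted p = 0.129), and it was called lower with the mouse as a block (adjusted p = 0.0233). Ccnb2 was at 93.3, 197 and 230 RPM and at 161, 76.0 and 45.0 RPM (-0.97, adjusted p = 0.129).

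The remaining mitotic genes overlapped between fresh MuSCs and myoblasts. Ccnb1 was at 98.4, 222 and 170 RPM in fresh MuSCs and 321, 264 and 138 RPM in myoblasts (log2 fold change 0.55, 95% interval -0.29 to 1.39). Cdk1 was at 81.7, 146 and 156 RPM and at 254, 154 and 99.9 RPM (0.35, -0.47 to 1.18), and Birc5 at 47.8, 150 and 126 RPM and at 169, 108 and 69.0 RPM (0.16, -0.87 to 1.18). In each, myoblast 04 held the highest level and fresh MuSC 04 the lowest. Top2a was at 41.3, 115 and 130 RPM and at 158, 177 and 102 RPM (0.73), and Mki67 at 66.5, 99.2 and 110 RPM and at 64.6, 102 and 49.2 RPM (-0.38, -1.07 to 0.31). Kif20a (0.80, adjusted p = 0.0892) and Ncapg (1.09, adjusted p = 0.0691) came nearest to the threshold, and 54.8% and 25.01% of their exonic bases lie opposite other exons. Ccna2, Foxm1, Aurkb, Bub1, Ttk, Tpx2, Kif11, Cdca8, Cenpe, Nusap1, Smc2 and Ncaph had log2 fold changes from 0.10 to 1.04, and Cdca3, Mad2l1, Cenpa, Prc1 and Hmgb2 from -0.42 to -0.11.

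The groups separated fully in 10 S-phase and 4 G2/M members with every myoblast library higher and in 1 G2/M member with every one lower, against 28.4% and 26.8% of all genes. With the mouse as a block 16 members were called in place of 17: Kif23 and Mcm2 dropped out and Cenpf came in.

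The lists of other genes gave these counts in culture. Of 55 other replication genes 9 were called and all 9 were higher, which is 16.4% and below the 22.2% of all genes (median of the list 0.32). Among them were E2f8, a repressor of late S phase, at 2.00, 3.85 and 2.83 RPM in fresh MuSCs and 36.6, 55.8 and 35.1 RPM in myoblasts (3.48, adjusted p = 6.52e-05), Cdc25a (1.87), Pold1 (1.69) and Fen1 (1.51). Of 59 other mitosis genes 14 were called higher, 23.7% and near that background, and 2 lower (median 0.59), with Gtse1 (2.82), Kif18b (2.33), Nek2 (2.12) and Ccnf (2.12) among the higher and Ckap2 (-0.97) lower. The median of the replication list was thus below that of the mitosis list, opposite to the order of the S-phase and G2/M members, and the difference between the lists was not tested.

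The 15 myofiber genes, markers of terminal differentiation in a culture of myoblasts, summed to 555 to 860 RPM in fresh MuSCs and to 13290, 22027 and 35444 RPM in myoblasts 04, 05 and 06. The library with the highest S-phase sum thus had the lowest myofiber sum and the library with the lowest S-phase sum the highest, over 3 libraries. Fibroadipogenic markers summed to 1440 to 2023 RPM in fresh MuSCs and 148 to 188 RPM in myoblasts. In fresh MuSCs Gsn reached 1311 RPM and Dpt 507 RPM, while Pdgfra, Ly6a, Lum and Pi16 stayed at or below 2.83 RPM in all 6 libraries. Of the 9 fibroadipogenic genes tested, 5 were called lower in myoblasts and 1 higher. Endothelial markers summed to at most 21.2 RPM in all 6. The part of these lists in the members' values was not tested.

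Set side by side, the comparisons share no library. No member was called in both. The log2 fold change was larger in the genotype comparison for 24 of 32 G2/M members and larger in the culture comparison for 17 of 23 S-phase members, and the difference between the comparisons was not tested. Nusap1 differed by 2.28 between genotypes and by 0.10 in culture, Birc5 by 2.06 and 0.16, Ccnb1 by 2.20 and 0.55. Uhrf1 differed by 0.30 between genotypes and by 2.41 in culture, Mybl2 by 0.11 and 2.39, Rrm1 by 0.18 and 1.49. Only 3 G2/M members, Plk1, Aurka and Ccna2, and no S-phase member reached a log2 fold change of at least 1 in both. Pttg1 was 0.61 higher in cKO and 1.0 lower in myoblasts on the log2 scale, Cenpf 1.81 higher and 0.91 lower.

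**Figure D5:**
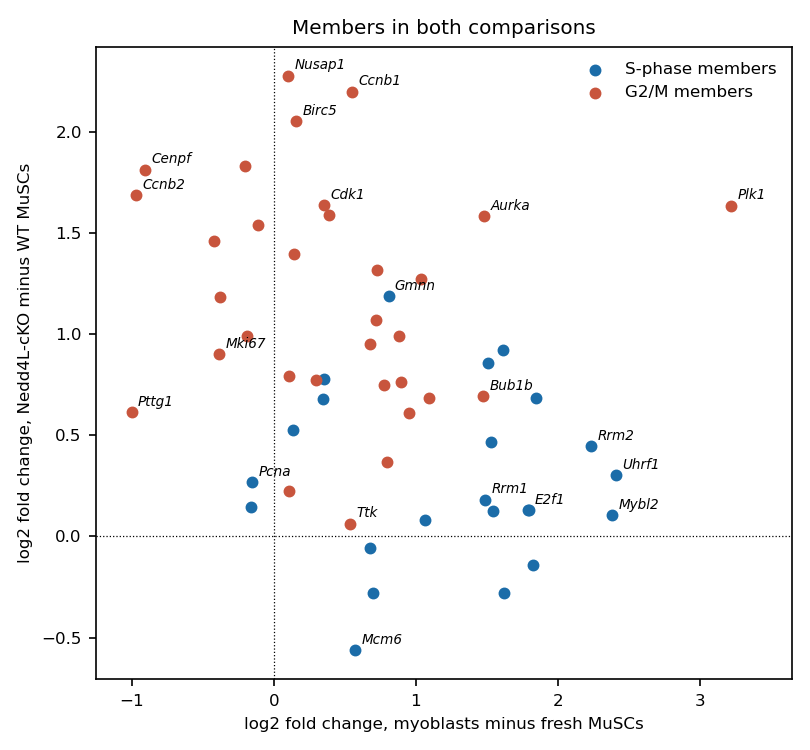
Log2 fold change of each member for Nedd4L-cKO minus WT MuSCs (vertical axis) against myoblasts minus fresh MuSCs (horizontal axis), S-phase members in blue and G2/M members in red, dotted lines at 0. The red points all lie above the horizontal line and 9 of 32 lie left of the vertical line, while 16 of 23 blue points lie above and to the right and none lies below and to the left.

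The promoter letters shown at the outset were set beside these values. S-phase members with E2F letters (14) had a median log2 fold change of 1.58 in culture and those without (9) of 0.81, with 9 and 2 called, and 0.13 and 0.45 between genotypes. G2/M members with CHR letters (17) had a median of 0.99 between genotypes and those without (15) of 1.28, and 0.39 and 0.16 in culture. These are descriptions of few genes with no test.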

How the data were processed

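RNA of 1000 cells per library was amplified with SMART-Seq HT and tagged with Nextera XT, which keeps no strand. The authors quantified transcripts with Kallisto 0.46.1 on the GENCODE basic annotation and summed them to genes with tximport. The deposited values are a signal, namely normalized counts that the authors divided by DESeq2 normalization factors, 1 table per comparison. The tables also hold the authors' fold changes, p-values and RPM columns, which were not used. Whole reads could not be recovered from the low values, so the read depth is unknown.

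RPM was computed as normalized counts divided by the mean of the 6 library totals of a table, times 1000000. Genes that reached 10 normalized counts in 3 or more libraries were fitted as log2(RPM + 1) with limma 3.58.1 in R 4.3.3 (trend and robust options), each table separately, and p-values were adjusted by Benjamini-Hochberg over all genes tested. The pseudocount of 1 RPM makes fold changes of low genes smaller. A call is an adjusted p of at most 0.05. An exact permutation of 3 against 3 libraries cannot go below p = 0.1, so none is given. The scripts were tested on simulated data.

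Samples were grouped by their labels. Replicate numbers 04 to 06 stand for the same mice in fresh MuSCs and myoblasts, by the mouse numbers in the sample descriptions. The blocked fit is therefore given where it changes a call. The deviations of same-numbered libraries correlated at -0.0314, -0.00502 and 0.0180. Whether other libraries came from separate cultures or litters is not given. Alternatives were other scalings (trimmed mean of M values, TMM, among them), pseudocounts, filters and left-out libraries.

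The members, their phases and the other gene lists were chosen with earlier results of these data known. Values per library are given for called members, for the members of smallest p in each phase up to 8, and always for Aurka, Birc5, Ccnb1, Cdk1, Mcm2, Mki67, Pcna and Top2a. Of the other lists, called genes (at most 8) and the 3 of smallest p could be named. Promoter windows and gene positions come from GENCODE on GRCm39. The release behind them is later than that of the authors.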

Additional observations from a re-analysis of the deposited data

How the results depend on the processing

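In the genotype comparison the direction of the G2/M and S-phase medians held under every alternative run, and the number of members called did not. It was 2 as reported and with TMM factors, a pseudocount of 5 RPM or added thresholds of fold and level. It was 1 with each library scaled to its own total, with or without mitochondrial genes, with a pseudocount of 0.1 RPM and with no filter, and 5 or 8 with a filter of 10 normalized counts in every library or a mean of 5 RPM. It was 0 with limma without trend and robust options, where 23 members had an unadjusted p under 0.05, and 0 to 11 with a library left out. The stricter filters test 12957 and 10049 genes, and the count over all genes then was 213 and 329 in place of 120, against 50 without trend and robust options and 22 to 123 with a library left out. The replicate block gave 4 members (Birc5, Ccnb1, Cdk1 and Cenpf) and 76 genes. The numbers 01 to 03 name different mice in WT and cKO, and the deviations of same-numbered libraries correlated at 0.0192, -0.0232 and -0.181. In culture, libraries of the same mouse correlated no more strongly (-0.0314, -0.00502 and 0.0180). These values therefore cannot show whether WT and cKO libraries of a number shared a batch. The median of G2/M members ranged from 0.868 to 1.64 and that of S-phase members from 0.058 to 0.456. The small difference of Mcm2 turned to -0.041 and -0.0048 with own totals and ranged from -0.26 to 0.46 with a library left out.

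In culture, 15 to 20 members were called under the alternatives that kept all libraries and 11 to 21 with a library left out. The counts over all genes in these fits are not given, so the ranges are not read against a background. Scaling to own totals moved the median of all genes from 0.04 to 0.14. With a library left out the G2/M median ranged from -0.0011 to 0.68, the S-phase median from 0.92 to 1.84, Birc5 from -0.35 to 0.48 and Pcna from -0.62 to 0.15. The mouse as a replicate block gave 16 members and changed no other member call than those of Kif23, Mcm2 and Cenpf. The causes of these changes were not tested.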

Other observations

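WT MuSCs were measured in both tables. The G2/M members summed to 405 to 929 RPM in WT MuSCs of the genotype table and to 1340 to 2905 RPM in fresh MuSCs of the culture table, and the S-phase members to 562 to 848 and 990 to 1551 RPM. The tables were normalized separately, and the age of the mice in the culture table is not given, so no test was made. The G2/M sum over the S-phase sum, which the scaling of a table does not change, was 0.721 to 1.10 in WT MuSCs of the genotype table, 1.39 to 1.90 in cKO MuSCs and 1.35 to 1.87 in fresh MuSCs of the culture table. Fresh WT MuSCs of the culture table thus lay above the other WT libraries and largely within the range of the cKO libraries.

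Rpa1, a subunit of the single-strand binding complex at the fork, was lower in every cKO library than in every WT library, at 71.8, 50.04 and 45.8 RPM in WT and 26.8, 34.0 and 40.2 RPM in cKO (log2 fold change -0.70, adjusted p = 0.278). In myoblasts it was called higher (1.24, adjusted p = 0.0202). Cdc25b, the phosphatase that starts mitosis, was likewise lower in cKO (-1.26, adjusted p = 0.160) and called higher in myoblasts (1.14, adjusted p = 0.00640).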
